A study of Mus musculus with 4 samples.

Results

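The 10 genes described here encode matricellular proteins and late valve matrix proteins: Thbs1, Thbs2, Postn, Sparc, Tnc, Spp1, Mgp, Dpt, Cyr61 and Ctgf. They were taken by symbol from tables of 27998 genes, and the set was chosen by measured values of these libraries: levels of some of the genes separated cell clusters or were near 0 at E9.5. Levels by cell cluster and the contrast with E9.5 are therefore given as descriptions, with no test. The libraries are droplet single-cell RNA sequencing (unique molecular identifiers, UMIs, counted per gene and cell) of C57BL/6 mouse heart cells sorted for tdTomato from Tie2-Cre; Rosa26-tdTomato matings. Tie2-Cre marks endothelial cells, blood cells and their descendants, so the sort also holds mesenchyme derived from endocardium. The E9.5 library held other cells as well. After filtering, 37.2% of its cells were named cardiomyocytes, 6.37% pharyngeal or heart field mesoderm and 2.35% epicardial or proepicardial cells. Levels over all E9.5 cells include these and the 21.4% named erythroid. Group E9.5 is 1 library of the atrioventricular canal, group E16.5 is 1 library of the mitral valve, and group P0 is 2 libraries of the newborn mitral valve. Each stage pooled at least 60 embryos, so p-values rest on the spread between pooled libraries, most of it estimated across genes. The 2 P0 libraries are not stated to come from separate litters.

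After filtering, the E9.5 library had 1194 cells, the E16.5 library 311, and the P0 replicates 282 and 173. Their median depth was 24621, 2357, 5159.5 and 4432 UMIs, so the E16.5 library was the shallowest. The list of cell barcodes filed with P0 replicate 1 has 211 entries and that with replicate 2 has 291, the reverse of the cell numbers in their matrices (291 and 211), and the lists share 4 barcodes. Cells were therefore identified by column. Each library was clustered alone without the 10 genes. Clusters were named from marker lists: interstitial-like cells (147 at E16.5, 58 and 41 at P0), surface endothelial-like cells (74, 47 and 49) and capillary or coronary endothelial-like cells (53, 64 and 40), with pericyte-like or smooth muscle-like cells (27) at E16.5. The 16 interstitial markers summed to 97.2, 150.3 and 136.5 UMIs per 10000 in interstitial-like cells and to 2.36, 1.61 and 1.30 in capillary-like cells (E16.5, P0 replicate 1, P0 replicate 2). The E16.5 interstitial-like cells also held 8.68 UMIs per 10000 of 10 macrophage markers, against 0.081 and 0.055 at P0. The macrophage signal sat in 1 of their 2 clusters. Their cardiomyocyte markers summed to 6.37, against 1.14 and 0.88. The part of these cells in the results was not tested, other than by the repeats within single clusters given below.

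Matricellular proteins sit in the extracellular matrix and act mainly on how cells attach, signal and remodel the matrix rather than as load-bearing fibres. In the developing atrioventricular valve, endocardial cells turn into cushion mesenchyme, whose descendants lay down the collagen, proteoglycan and elastic layers of the leaflets. Periostin (Postn) is known for its part in valve maturation and collagen assembly, and matrix Gla protein (Mgp) as an inhibitor of calcification. Thrombospondins 1 and 2 bind CD47, CD36 and integrins. SPARC, dermatopontin (Dpt) and tenascin C (Tnc) bind collagens, decorin and fibronectin respectively, and osteopontin (Spp1) is an integrin ligand of mineralising tissue. CCN1 (Cyr61) and CCN2 (Ctgf) are secreted products of textbook YAP/TAZ-TEAD target genes.

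On build GRCm38 (GENCODE M21), the 10 are protein-coding genes spread over 9 chromosomes. The thrombospondin genes are Thbs1 (chr2:118111876-118127133, plus strand) and Thbs2 (chr17:14665500-14694235, minus). The matrix genes are Postn (chr3:54361109-54391037, plus), Mgp (chr6:136872435-136875823, minus), Dpt (chr1:164796644-164824266, plus), Sparc (chr11:55394500-55423183, minus), Tnc (chr4:63959785-64047015, minus) and Spp1 (chr5:104435118-104441050, plus). The CCN genes are Cyr61 (chr3:145646976-145649981, minus) and Ctgf (chr10:24595442-24598683, plus). Counts are UMIs at 3′ ends, so levels are compared within a gene.

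The 250 bases upstream of the RefSeq start (GRCm38.p6) were matched for 7 of the 10 genes, and not for Thbs1, Mgp and Ctgf. The 3 shown belong to Dpt, which had no UMI at E9.5, to Postn, which was detected in nearly all interstitial-like cells, and to Cyr61, a YAP/TAZ target. Both strands were searched for the TEAD element GGAATG, the TATA box TATAAA, the AP-1 site TGANTCA, the E-box CANNTG and the CArG box. Capitals mark E-boxes in Dpt and the TATA box and TEAD element in the others, and no matches overlap in these 3 windows. They run 5′ to 3′ on the gene's strand, at chr1:164796413-164796662 (plus), chr3:54360857-54361106 (plus) and chr3:145649986-145650235 (minus). The last 19 bases of the Dpt window lie inside the gene as GENCODE draws it.
Dpt: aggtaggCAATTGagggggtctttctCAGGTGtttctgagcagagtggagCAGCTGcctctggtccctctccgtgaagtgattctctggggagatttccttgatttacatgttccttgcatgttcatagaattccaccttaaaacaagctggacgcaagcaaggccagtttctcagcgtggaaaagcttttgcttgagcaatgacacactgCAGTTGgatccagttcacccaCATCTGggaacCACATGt
Postn: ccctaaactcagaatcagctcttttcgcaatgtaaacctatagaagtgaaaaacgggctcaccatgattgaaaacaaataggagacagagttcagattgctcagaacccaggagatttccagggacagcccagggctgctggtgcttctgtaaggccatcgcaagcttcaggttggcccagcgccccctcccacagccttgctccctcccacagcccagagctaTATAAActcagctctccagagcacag
Cyr61: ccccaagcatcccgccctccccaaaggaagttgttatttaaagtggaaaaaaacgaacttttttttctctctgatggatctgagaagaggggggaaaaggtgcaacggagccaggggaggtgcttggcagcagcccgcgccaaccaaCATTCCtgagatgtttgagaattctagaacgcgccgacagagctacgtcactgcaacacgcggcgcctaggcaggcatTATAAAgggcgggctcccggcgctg

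Dpt held 6 E-boxes and none of the other motifs. Of all 32851 RefSeq windows of this length, 66.2% held an E-box and 0.274% held 6 or more. The TATA box began 26 bases before the start in Postn and 25 before it in Cyr61, and 2.50% of windows held one that began 20 to 40 bases before the start. The TEAD element of Cyr61 began 103 bases before the start, and 12.6% of windows held one. AP-1 sites and CArG boxes, at 6.75% and 1.47% of windows, were not matched in these 3. Such matches describe letters only.

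Thbs1 was concentrated in interstitial-like cells. It stood at 6.97 UMIs per 10000 (95% Poisson interval 6.12 to 7.91) in those cells at E16.5 and at 8.26 and 7.95 at P0. In surface endothelial-like cells it stood at 0.191, 0.166 and 0.339, and in capillary-like cells at 0.061, 0.064 and 0 UMIs per 10000. Interstitial-like cells held 90.6% of the Thbs1 UMIs of the kept cells at E16.5, and 50.5% and 71.1% at P0. Nearly all of the rest at P0 (47.5% and 24.0%) lay in unnamed clusters. The E16.5 pericyte-like cells were intermediate, at 1.73 (15 UMIs). In P0 replicate 1, 1 interstitial-like cell held 41 of the 203 Thbs1 UMIs of its class. Poisson and binomial intervals here cover counting error only.

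Dpt was likewise near 0 in both endothelial classes but was shared with pericyte-like cells. It stood at 4.87 UMIs per 10000 (4.16 to 5.66) in interstitial-like cells at E16.5, and at 4.47 and 5.70 at P0. The E16.5 pericyte-like cells held 4.04 (2.81 to 5.61), which overlaps the interstitial-like interval. This class depended on the clustering: at resolution 0.6 no pericyte-like class of at least 20 cells was named at E16.5. Interstitial-like cells then numbered 169 in place of 147 and held 201 Dpt UMIs in place of 169, at 4.86 UMIs per 10000. Surface endothelial-like cells held 6 Dpt UMIs in 5 of 74 cells at E16.5. They held 0 of 301276 and 0 of 265633 UMIs at P0, where 3 UMIs, the limit that a count of 0 allows, would be 0.0996 and 0.113 per 10000. Unnamed clusters held 72.2% and 46.7% of the Dpt UMIs at P0.

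Mgp was shared by interstitial-like and surface endothelial-like cells. Its level was 22.5 UMIs per 10000 (20.99 to 24.2) in interstitial-like cells at E16.5 and 16.51 and 18.4 at P0. In surface endothelial-like cells it was 13.5 (12.0 to 15.2), 11.9 and 8.997, and in E16.5 pericyte-like cells 14.5 (12.1 to 17.3). Of the 126 Mgp UMIs of the pericyte-like cells, 55 lay in 1 cell. Capillary-like cells held 2.18, 0.472 and 0.542, below the surface endothelial-like level in each mitral library, with Poisson intervals apart. At E16.5, 18 of the 36 Mgp UMIs of capillary-like cells lay in 1 cell. The intervals leave out the spread between cells, so this is a description and no test.

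**Figure D1:**
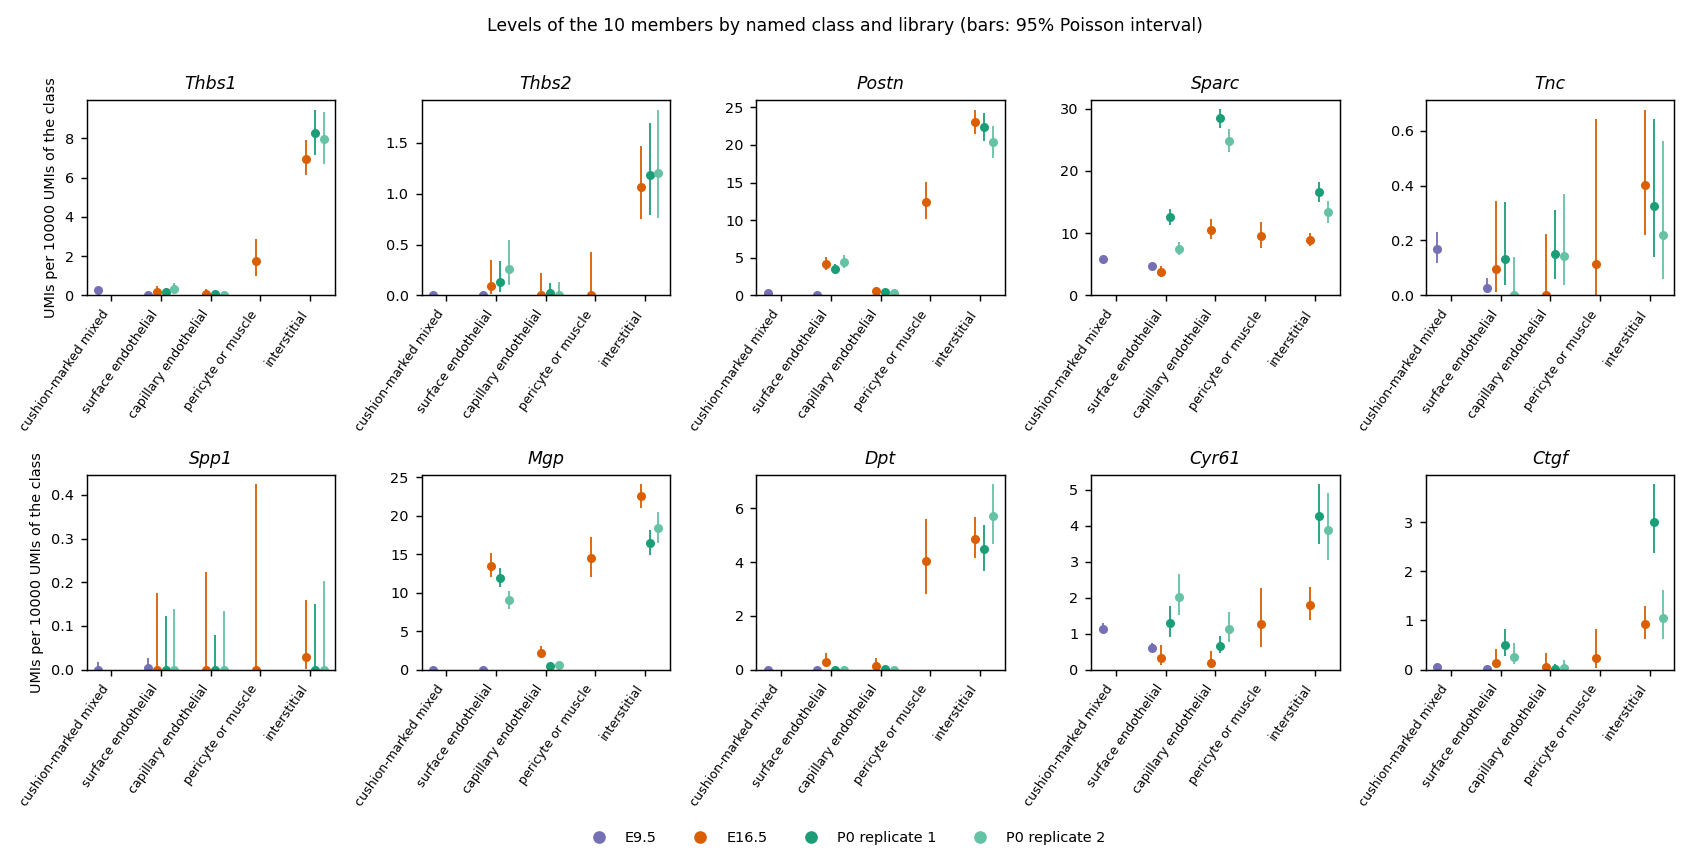
Levels of the 10 genes (vertical axes, UMIs per 10000 UMIs of the class, each axis from 0) in 5 named classes, with 1 point per library, coloured by library, and bars for the 95% Poisson interval. Thbs1 lies between 6.97 and 8.26 in interstitial-like cells and at or below 0.339 in both endothelial classes, Mgp is also high in surface endothelial-like cells, and Sparc is highest in capillary-like cells.

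The share of cells carrying these genes was compared after every cell was thinned to 1500 UMIs, which left out 33 of the 147 interstitial-like cells at E16.5 and none at P0. Thbs1 was then detected in 43.9% of interstitial-like cells at E16.5 (exact binomial interval 34.6 to 53.5%) and in 44.8% and 70.7% at P0. The unthinned shares were 46.9%, 69.0% and 80.5%, at median depths of 2062, 3750 and 3934 UMIs. Capillary-like cells, a class that should lack the gene, gave 0 of 49, 0 of 64 and 0 of 39 thinned cells. Those zeros allow shares of up to 6.12%, 4.69% and 7.69%. Median depths there, before thinning, were 2962, 5096.5 and 4504 UMIs.

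Dpt was detected in 53.5%, 50.0% and 63.4% of thinned interstitial-like cells (57.1%, 79.3% and 78.0% unthinned), against 1 of 49, 1 of 64 and 0 of 39 capillary-like cells. The share of thinned surface endothelial-like cells with Dpt at E16.5 (3 of 61, 4.92%, 1.03 to 13.7%) overlapped the capillary-like share (2.04%, 0.052 to 10.9%). So few cells cannot tell low expression from background, and this was not tested. Mgp was detected in 74.6%, 67.2% and 85.4% of thinned interstitial-like cells and in 59.0%, 74.5% and 51.0% of surface endothelial-like cells (unthinned 82.3%, 89.7% and 97.6%, and 66.2%, 97.9% and 71.4%). Its capillary-like shares were 20.4%, 10.9% and 10.3% thinned, so the surface endothelial share lay above the capillary-like share in each mitral library.

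Detection of the 3 genes overlapped within interstitial-like cells. The overlap that separate detection of each gene would give was not computed, so no joint regulation is read from it. After thinning, all 3 were detected together in 20 of 114, 8 of 58 and 15 of 41 cells. Dpt was detected in 48.0% of cells with Thbs1 and 57.8% of cells without it at E16.5. The same pair of shares was 46.2% and 53.1% in P0 replicate 1, and 58.6% and 75.0% in P0 replicate 2. At 1500 UMIs a cell can miss a transcript it holds, so these shares show detection and not the number of expressing cells.

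**Figure D2:**
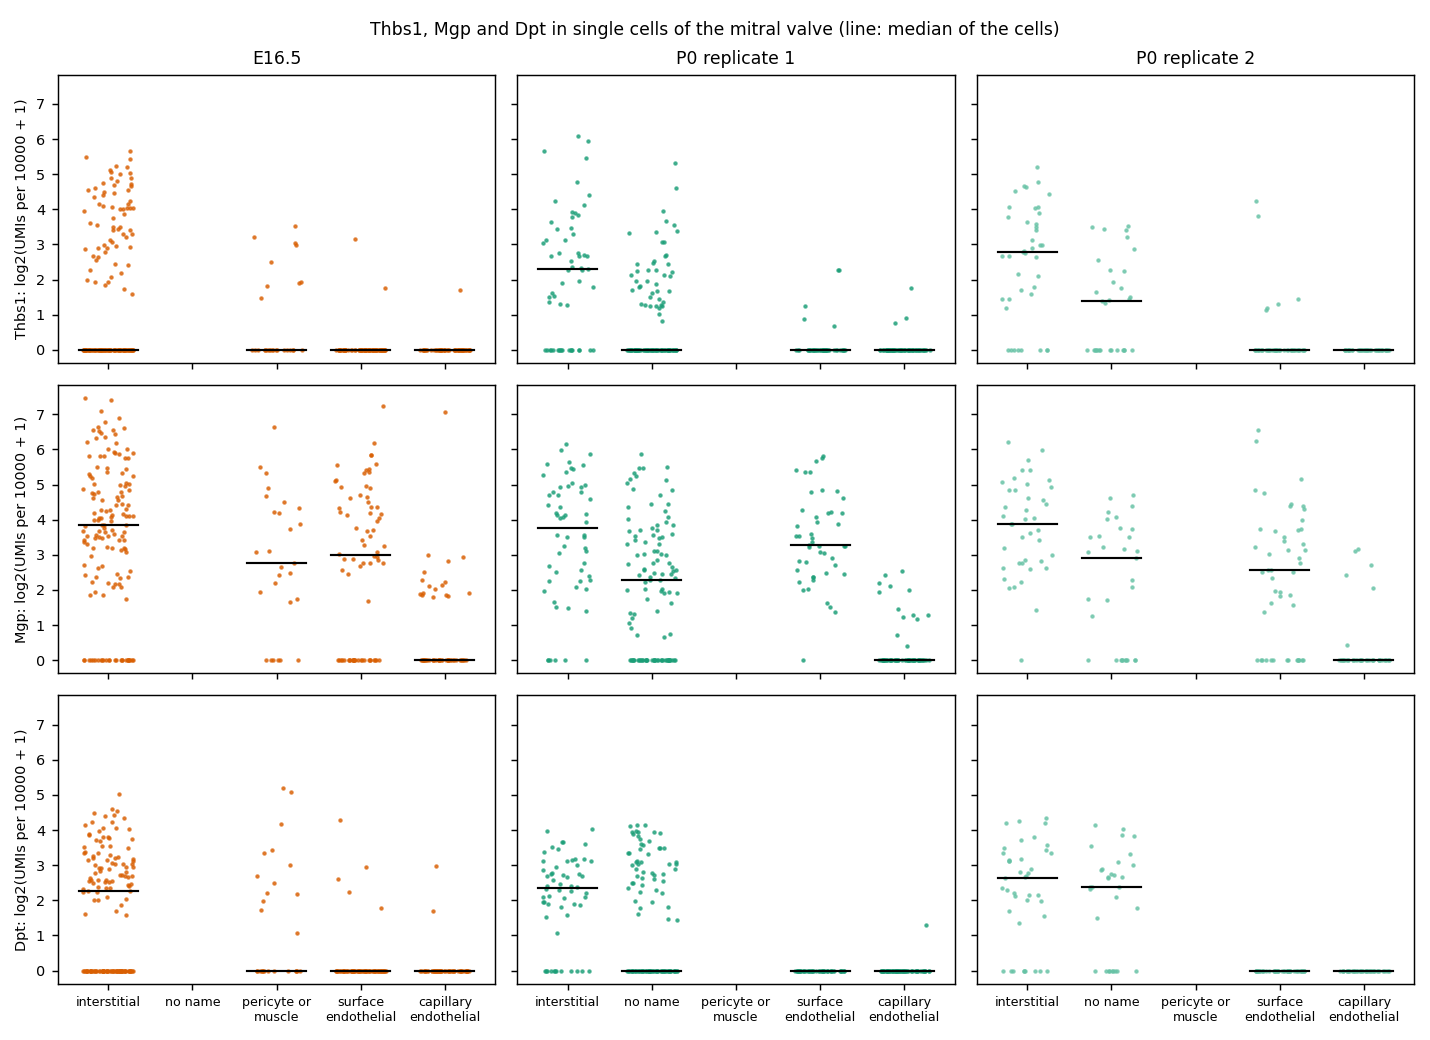
Each point is 1 cell of the mitral valve, by class (horizontal) and library (columns). The vertical axis is log2 of the gene's UMIs per 10000 plus 1, and the line is the median of the cells. At E16.5 no cluster was left unnamed, and pericyte-like cells were named at E16.5 only. Thbs1 and Dpt cells lie in interstitial-like, unnamed and pericyte-like cells, while Mgp cells also fill the surface endothelial-like column.

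Among the other matrix genes, Postn stood in interstitial-like cells at 23.1, 22.4 and 20.3 UMIs per 10000 (E16.5, P0 replicate 1, P0 replicate 2). It was also present in surface endothelial-like cells (4.16, 3.49 and 4.44) and near 0.5 UMIs per 10000 in capillary-like cells (0.605, 0.515 and 0.325). Sparc had another order among these named classes. Capillary-like cells led with 10.5, 28.4 and 24.8, ahead of interstitial-like cells at 8.96, 16.6 and 13.3 and surface endothelial-like cells at 3.83, 12.6 and 7.42. The unnamed P0 clusters led by Aspn and Dlk1, described below, held 29.2 and 25.1, beside 28.4 and 24.8 in capillary-like cells. At E16.5 the Sparc intervals of capillary-like (9.02 to 12.2), pericyte-like (7.62 to 11.9) and interstitial-like cells (7.99 to 10.0) overlapped.

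The remaining members were low. Thbs2 stood at 1.07, 1.18 and 1.21 UMIs per 10000 in interstitial-like cells and at or below 0.264 in the endothelial classes. Tnc stood at 0.403, 0.325 and 0.219 in interstitial-like cells, on 14, 8 and 4 UMIs. Spp1 gave 1 UMI in interstitial-like cells at E16.5 and none there at P0. Cyr61 stood at 1.79, 4.27 and 3.89 in interstitial-like cells and at 0.335, 1.29 and 2.03 in surface endothelial-like cells. Ctgf stood at 0.922, 3.01 and 1.04, so the P0 replicates differed for it. The 10 cells richest in Ctgf held 84.2% of its 38 UMIs at E16.5. Of the 10 genes, 9 at E16.5 (Spp1 on 1 UMI) and 8 in each P0 library had their highest named-class level in interstitial-like cells. The share over all genes was not computed and the set was chosen partly by cluster levels, so these counts are a description. Unnamed clusters are outside them. At P0 those led by Aspn and Dlk1 held more Tnc and Thbs2 than interstitial-like cells, as given below. With the 10 genes kept among the variable genes the E16.5 count was 7, without Cyr61 and Ctgf, and the E16.5 Ctgf level was 0.478 in place of 0.922. Sparc was the exception throughout, and Spp1 had no UMI in the named classes at P0.

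Within the matrix-rich cells the members did not move as a block. Each P0 library had, beside its interstitial-like cluster, an unnamed cluster led by Aspn and Dlk1 (39 and 31 cells) in which 12 and 10 of the 16 interstitial markers were raised. Asporin (Aspn) is a small proteoglycan. These clusters held less Thbs1 than the interstitial-like cells of the same library (3.67 against 8.26, and 3.16 against 7.95 UMIs per 10000), and less Mgp (13.4 against 16.51, and 6.77 against 18.4). They held more Sparc (29.2 against 16.6, and 25.1 against 13.3). Postn stood at 21.004 against 22.4, and at 15.8 against 20.3. The 95% Poisson intervals were apart for Thbs1 and Sparc in both libraries and for Mgp and Postn in replicate 2 alone. They cover counting error only and leave out the spread between cells, so this is a description and no test.

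Dpt stood at 7.42 against 4.47 UMIs per 10000 in replicate 1 and 5.93 against 5.70 in replicate 2, so its difference did not recur. Dpt was detected in 38 of the 39 cells of the Aspn-led cluster of replicate 1. Ctgf was lower in both Aspn-led clusters (1.04 against 3.01, and 0.516 against 1.04), with overlapping intervals in replicate 2. Cyr61 was lower too (2.81 against 4.27, and 2.97 against 3.89). Tnc (0.724 against 0.325, and 0.645 against 0.219) and Thbs2 (1.49 against 1.18, and 1.29 against 1.21) were higher in the Aspn-led clusters. Intervals of Cyr61, Tnc and Thbs2 overlapped in both libraries. These clusters also held more cardiomyocyte marker UMIs than the interstitial-like cells (23.2 against 1.14, and 33.7 against 0.877 per 10000) and more pericyte and muscle marker UMIs (13.4 against 9.31, and 21.9 against 11.1). The part of those cells in the member levels was not tested. A further 16 cells of P0 replicate 1, led by cycling genes, held the highest Dpt of any cluster there (8.996 UMIs per 10000, on 124 UMIs) with 29.2 of Postn and 6.31 of Thbs1.

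The 2 interstitial-like clusters at E16.5 differed in Mgp. The cluster led by Mrc2 and Mfap4 (67 cells) held 29.0 UMIs per 10000 (26.3 to 31.8) and the cluster led by Thbs1 and Ccl2 (80 cells) held 17.8 (16.01 to 19.8). Their Thbs1 levels, 5.85 (4.68 to 7.22) and 7.81 (6.63 to 9.13), overlapped. Postn was 23.4 and 22.8, and Dpt 4.15 and 5.40, in the same order. The Thbs1- and Ccl2-led cluster also held 14.96 macrophage marker UMIs per 10000 against 0.136, and 9.11 against 2.38 of proliferation markers. Whether those cells changed the member levels was not tested.

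**Figure D3:**
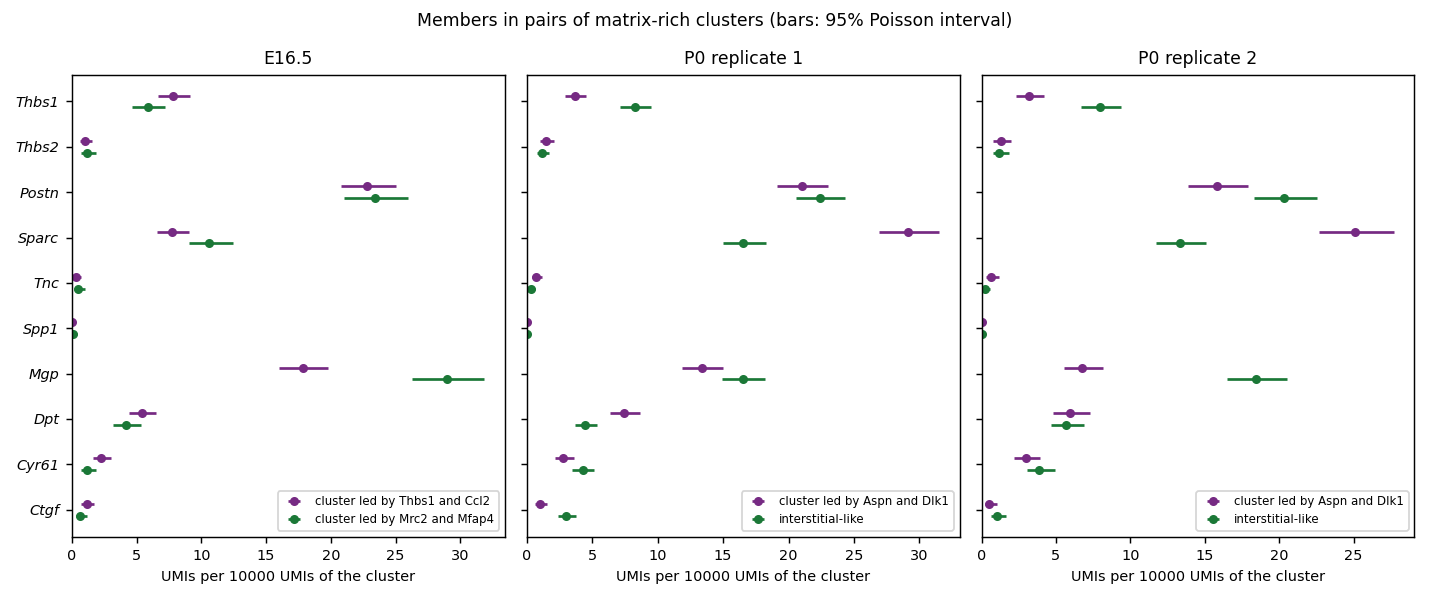
Levels of the 10 genes (horizontal axis, UMIs per 10000 UMIs of the cluster, with 95% Poisson intervals) in pairs of matrix-rich clusters of the E16.5 library and the 2 P0 libraries. In both P0 libraries the Aspn- and Dlk1-led cluster lies below the interstitial-like cluster for Thbs1 and above it for Sparc, and at E16.5 the clusters are apart for Mgp.

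At E9.5 Dpt, Mgp and Thbs2 were at or near 0 although the library was the deepest. Dpt had 0 UMIs among the 30533053 of the kept cells, which allows up to 0.00098 per 10000. Mgp had 13 UMIs and Thbs2 had 7. Spp1 had 34 UMIs, or 0.0111 per 10000, beside 0.0118 at E16.5 and 0.0166 and 0 at P0 over all kept cells, so it was low at every stage. Sparc and Cyr61 were already widespread, with 10192 and 3252 UMIs in 964 and 633 of the 1194 cells. Sparc was highest in the epicardial-like cells (10.6 UMIs per 10000), a layer of the early heart's outer surface, ahead of the mixed cluster at 5.79 and the surface endothelial-like cells at 4.74. Cyr61 and Ctgf were also highest in epicardial-like cells (4.48 and 0.462).

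The mixed cluster (102 cells) carried both endothelial and mesenchymal markers and 7 of 10 markers of endocardial cushion mesenchyme. It held 60 of the 223 Thbs1 UMIs at E9.5, in 31 cells, a level of 0.267 UMIs per 10000 (0.204 to 0.343). The surface endothelial-like cells of the same library held 2 Thbs1 UMIs in 89 cells (0.0095, 0.0012 to 0.034). Postn was at 0.280 and 0.090 in these 2 groups, Tnc at 0.169 and 0.029, and Mgp had 0 and 2 UMIs.

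A large share of E9.5 Thbs1 and most of E9.5 Postn came from a handful of cells. The 6 cells that carried at least 3 of the 4 platelet markers Ppbp, Itga2b, Gp9 and Gp1bb, a choice made after the Thbs1-rich cells had been seen, held 104 of the 223 Thbs1 UMIs (46.6%), with 3 to 32 in each. Their level was 6.22 UMIs per 10000 against 0.039 in the other 1188 cells. They lay in an erythroid-named cluster. Of the 10 macrophage-list markers these cells held 2275 UMIs, of which 2271 were Pf4 (platelet factor 4, a gene of platelets and some macrophages) and 4 Lyz2, and the other 8 markers, C1qa and Csf1r among them, were at 0. For Postn, 6 cells of the unnamed mesenchyme cluster led by Dlk1 and Col1a1 held 425 of 581 UMIs, with 22 to 98 each. Those 6 cells held 159 interstitial marker UMIs per 10000 against 4.83 elsewhere, and their epicardial markers (28.2 against 2.28) and capillary markers (3.67 against 0.821) were also higher. None of the 7 neural crest and glial markers had a UMI in them. The Postn cells held most of the E9.5 UMIs of that gene, whereas the other 1188 cells held 119 Thbs1 UMIs, more than the platelet-marked cells.

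**Figure D4:**
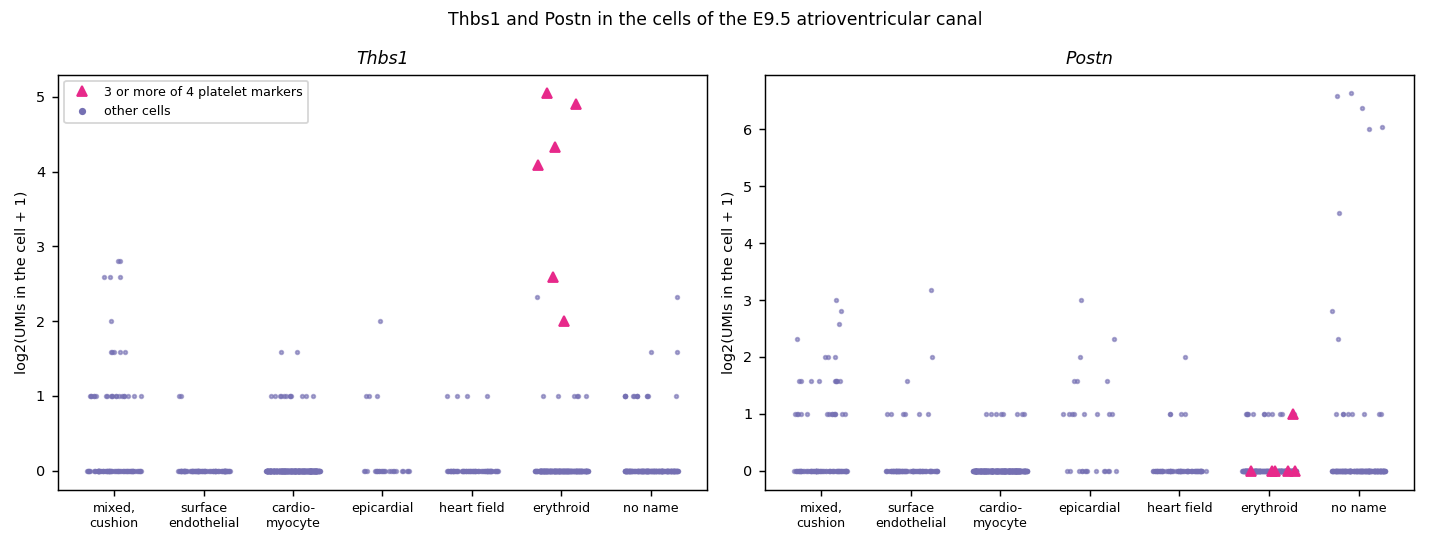
Each point is 1 cell of the E9.5 library by class, and the vertical axis is log2 of the cell's UMIs of Thbs1 (left) or Postn (right) plus 1. Triangles are the 6 cells with 3 or more of 4 platelet markers, which hold 3 to 32 Thbs1 UMIs each, and 6 unnamed cells hold 22 to 98 Postn UMIs each.

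E16.5 was compared with P0 on UMI counts summed per library and class, with edgeR's quasi-likelihood test and Benjamini-Hochberg adjustment over all genes tested. The fits of interstitial-like and surface endothelial-like cells also held an E9.5 sum, as a group of its own. These were the mixed cluster (102 cells) and the E9.5 surface endothelial-like cells (89 cells) respectively. They entered the scaling and the count filter, but not the contrast. The other fits held no E9.5 sum. The lone E16.5 library has no replicate check and is assumed to vary like the P0 libraries. Prior degrees of freedom were 18.2 (interstitial-like), infinite (surface endothelial-like) and 10.2 (all kept cells), beside 1 residual degree of freedom. The spread of a gene was thus mostly borrowed from other genes. In the surface endothelial-like fit a gene's own spread between the P0 libraries got no weight. A gene was called where the adjusted p was under 0.05 and both P0 libraries differed from E16.5 in 1 direction. In interstitial-like cells 24.6% of 3870 tested genes were called (14.8% higher and 9.84% lower at E16.5), and among the members 1 of the 8 tested was higher and 0 lower. That was Mgp, higher at E16.5 by a log2 fold of 0.83 (SE 0.22, adjusted p = 0.0094), from 22.5 UMIs per 10000 against 16.51 and 18.4. Tnc and Spp1 were under the count filter.

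The other 7 did not pass: Postn 0.57 (SE 0.22, adjusted p = 0.071), Dpt 0.40 (SE 0.27, 0.29), Thbs2 0.30 (SE 0.38, 0.62), Thbs1 0.24 (SE 0.25, 0.52), Sparc -0.28 (SE 0.25, 0.44), Cyr61 -0.74 (SE 0.31, 0.087) and Ctgf -0.74 (SE 0.47, 0.27). These folds are relative to a trimmed mean over genes (TMM). Scaled by library totals instead, the median of all genes moved from -0.04 to -0.53 and the share of calls that were higher at E16.5 from 60.0% to 30.5%. With that scaling Mgp was 0.34 (adjusted p = 0.25), the signs of Thbs1 (-0.24), Thbs2 (-0.19) and Dpt (-0.08) turned, and Cyr61 was called at -1.22 (adjusted p = 0.021). Mgp had an adjusted p under 0.05 and the same sign in 8 of 12 alternatives with a test (adjusted p from 1.8e-09 to 0.40). It was not called with library totals, without the low-count filter (log2 fold 0.79) or with cells of at least 1000 genes (log2 fold 0.31). Nor was it called with the Thbs1- and Ccl2-led cluster as the only E16.5 cells (log2 fold 0.39). Of the genes that did not pass, Cyr61 (adjusted p from 0.014 to 0.51) and Postn (0.0019 to 0.91) had an adjusted p under 0.05 in 4 of 12 alternatives each. Thbs1 (0.0032 to 0.92), Sparc (0.0031 to 0.87) and Ctgf (0.0037 to 0.98) had one in 2 of 12 each. For Thbs1 and Sparc these were the libraries clustered together and the added clusters with 10 or more interstitial markers. Without P0 replicate 1 the Ctgf fold was 0.31, and without replicate 2 it was -1.28.

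In surface endothelial-like cells 21.3% of 4625 tested genes were called (12.5% higher and 8.78% lower), and 3 of the 5 members tested, 1 higher and 2 lower. Mgp was higher at E16.5 (0.92, SE 0.26, adjusted p = 0.0031), from 13.5 UMIs per 10000 against 11.9 and 8.997. Sparc was lower (-0.84, SE 0.30, adjusted p = 0.027), from 3.83 against 12.6 and 7.42, and so was Cyr61 (-1.76, SE 0.56, adjusted p = 0.013), from 0.335 against 1.29 and 2.03. Postn (0.62, adjusted p = 0.15) and Ctgf (-0.87, adjusted p = 0.80) did not pass. With library totals the median of all genes moved from -0.11 to -0.71, the higher share of calls from 58.7% to 24.8%, and Mgp to 0.32 (adjusted p = 0.34, in a range over alternatives from 0.0011 to 0.34). In the alternatives with a test, the adjusted p was under 0.05 with the same sign for Mgp in 4 of 8, Sparc in 4 of 8 and Cyr61 in 7 of 8. Sparc was -0.43 without P0 replicate 1 and -1.16 without replicate 2. Under DESeq2 neither Sparc nor Cyr61 passed (adjusted p = 0.23 and 0.24, ranges over alternatives 0.0028 to 0.23 and 0.0022 to 0.24). In capillary-like cells, where no call was used, Sparc had a log2 fold of -0.73 (SE 0.21). No fold is read for Mgp there, since 18 of its 36 UMIs at E16.5 lay in 1 cell.

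Over all kept cells, 29.8% of 8638 tested genes were called (15.3% higher and 14.5% lower) and 5 of the 9 members tested: higher Mgp (1.61, SE 0.15, adjusted p = 1.4e-05), Thbs1 (1.17, SE 0.19, adjusted p = 0.00084), Postn (1.09, SE 0.16, adjusted p = 0.00056) and Dpt (0.87, SE 0.19, adjusted p = 0.0067), and lower Sparc (-0.56, SE 0.17, adjusted p = 0.030). Interstitial-like cells made up 47.3% of kept cells at E16.5 (exact binomial interval 41.6 to 53.0%) against 20.6% and 23.7% at P0, and unnamed cells 40.1% and 17.9% at P0. This gap rests largely on the naming rule: with every cluster in which 10 or more interstitial markers were raised, a choice made after seeing the data, the P0 shares were 40.1% (34.3 to 46.0%) and 41.6% (34.2 to 49.3%). More cells of a type and more RNA of a gene per cell cannot be told apart in these sums. With library totals the median of all genes moved from -0.07 to -0.70, the higher share of calls from 51.3% to 18.1%, and Dpt to 0.23 (adjusted p = 0.38, in a range over alternatives from 0.00036 to 0.38). Thbs1, Postn and Dpt did not pass with cells of at least 1000 genes (adjusted p = 0.097, 0.057 and 0.15), nor Dpt and Sparc with DESeq2 (0.056 and 0.15). In the 6 alternatives with a test, Dpt had an adjusted p under 0.05 and the same sign in 3, and Thbs1, Postn and Sparc in 5 each. Mgp had both in 6 of 6 alternatives with a test.

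The difference between interstitial-like and surface endothelial-like cells in their E16.5-P0 change was tested with the library as a block, and 1.04% of 4057 genes were called. Among the 8 members tested, 1 was called, Dpt (adjusted p = 0.031). Dpt, Thbs1, Thbs2 and Ctgf reached the count filter of this fit only through their interstitial-like sums. The Dpt call is therefore not read as a difference between the classes. Dpt had 6 UMIs in surface endothelial-like cells at E16.5 and none at P0, so no fold is given here. The share of surface endothelial-like cells with Dpt at E16.5 overlapped the capillary-like share, as given above. For Mgp the interval of the difference ran from -0.69 to 0.56, for Sparc from -0.14 to 1.27 and for Cyr61 from -0.25 to 2.29 on the log2 scale, each including 0.

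**Figure D5:**
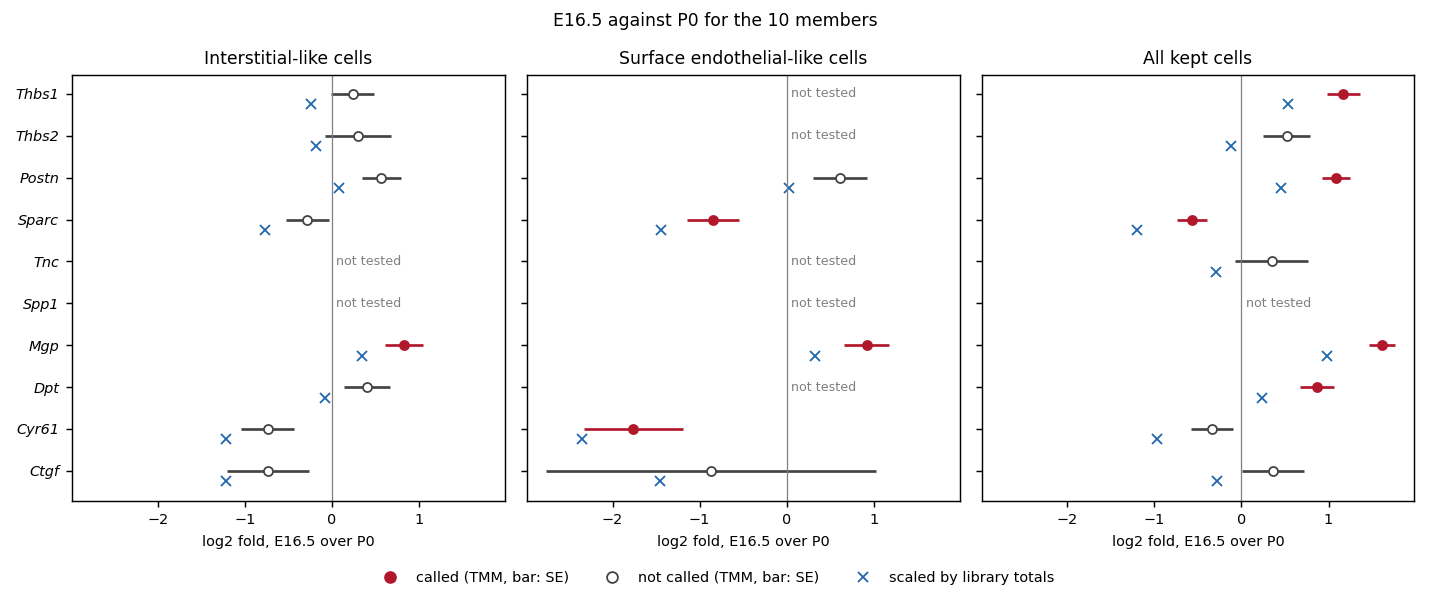
Log2 fold of E16.5 over P0 (horizontal axis) for each gene in 3 comparisons, with bars for the SE under TMM scaling, filled where called, and crosses for the fold under library totals. Mgp is called in all 3 panels under TMM, and each cross lies to the left of its circle, by 0.48 to 0.64 over the 3 panels.

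Partner genes of the members were read in interstitial-like cells from lists fixed for this purpose, and directions are those of called genes, for which UMIs per 10000 moved the same way. Each count stands beside the 24.6% of all tested genes that were called (14.8% higher and 9.84% lower), and nothing particular to a list is read from it. Of 20 matrix partners tested, 2 rose at E16.5 relative to P0, Fn1 (fibronectin, 3.03 against 1.59 and 1.65 UMIs per 10000) and Timp1 (a metalloproteinase inhibitor, 3.40 against 1.505 and 2.85), and 2 fell. These were Mmp14, a membrane metalloproteinase, with 2 UMIs against 60 and 22, and Timp3 (1.67 against 5.53 and 3.40). The list's median log2 fold was 0.33, beside -0.04 over all genes tested. Of 6 other matricellular genes tested, 1 fell and none rose: Fstl1 (5.07 against 16.7 and 14.6, log2 fold -1.17, adjusted p = 0.0023). That list's median was -0.73.

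Of 8 receptors tested, 2 rose, the integrin subunits Itga5 (1.53) and Itgb5 (1.38 on the log2 scale), and 3 fell. The latter were Cd47, a thrombospondin receptor (-1.32), the proteoglycan Sdc4 (-1.09) and the integrin subunit Itgb1 (-0.91, named after its values were seen), with a list median of -0.31. Of 7 Hippo and YAP/TAZ genes tested, 2 fell, the TEAD cofactor gene Vgll4 (0 UMIs against 18 and 9) and Lmcd1 (0.519 against 2.36 and 1.70 UMIs per 10000), and the median was -0.11. Of 4 mineralisation and vitamin K genes tested, none was called and the median was -0.89. Sox9 (0.95, adjusted p = 0.077) and Vkorc1, which recycles the vitamin K that Mgp needs (0.23, adjusted p = 0.72), had the highest levels.

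Genes that respond to tissue dissociation moved between the same libraries. Their 18 members summed to 33.7 UMIs per 10000 in E16.5 interstitial-like cells against 86.7 and 99.3 at P0. Of the 18, 8 fell at E16.5, among them Junb (-2.80) and Btg2 (-2.46), and 2 rose, the heat shock genes Hspa1a (2.70) and Hspa1b (4.47). The list's median was -0.68. Of 5 stress and inflammation genes tested, 3 rose, Ccl2 (4.15 UMIs per 10000 against 0.163 and 0.055), Ddit3 and Cxcl1, with a median of 1.70. Cyr61 and Ctgf are also known as immediate early genes. Cyr61 was called lower at E16.5 in surface endothelial-like cells and not in interstitial-like cells, and Ctgf was called in none of the comparisons. The part of dissociation in these values was not tested.

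Over the 10 sums of named mitral valve classes with at least 20 cells (4 at E16.5 and 3 in each P0 library), the genes whose log levels most resembled each leading member were read by Pearson's r over 7359 genes. This is a description, since sums share libraries and depth. Col1a1, Col1a2, Col3a1 and Mfap4, named below, are also among the interstitial markers that named the classes. For Thbs1 they were Srpx (0.98), Col9a1 (0.97), Bmper (0.97), Gadd45b (0.97) and Dkk3 (0.97). For Dpt they were Col1a1 (0.99), Mmp23 (0.98), Sfrp2 (0.98), Prelp (0.98) and Mfap4 (0.97). For Postn they were Rcn3 (0.99), Fhl1 (0.99), Col1a2 (0.98), Col3a1 (0.98) and Fbn2 (0.98), and for Mgp, Mfap2 (0.97), Mdk (0.97), Apoe (0.96), Gata4 (0.94) and Pdlim3 (0.94). No gene was shared among these 4 short lists. At r above 0.90 there were 89 genes for Thbs1, 58 each for Dpt and Postn, and 21 for Mgp. The overlap of these longer lists, and the overlap that chance would give, were not computed. Lists cut so short from 7359 genes cannot show whether the members have separate partners, so none are read from them.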

How the data were processed

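Droplet single-cell libraries of 1 E9.5, 1 E16.5 and 2 P0 samples were used. The authors deposited UMI counts per gene and cell, made with Cell Ranger 2.1.1 on mm10 per the submitters' processing notes. No source used here gives the counting settings or strand. The deposited barcode lists hold other entries (no measured values), and they were only counted. Totals were 30819374, 1021188, 1836768 and 1086623 counts. Cells with at least 500 genes and at most 10% mitochondrial counts were kept, and Scrublet, run per library, removed 5, 6, 1 and 5 doublets, under 0.5% in 2 libraries. Clusters (scanpy 1.11.5, 2000 variable genes without the 10 members, 20 components, 15 neighbours, Leiden resolution 1.0) were named where at least 3 list markers were 2-fold raised. A cluster whose leading genes fit another list stayed unnamed. Summed counts were tested in edgeR 4.0.16 (TMM, genes over the level of 10 counts in the smallest sum, 1 residual degree of freedom) and, as an alternative, in DESeq2 1.42.0. The edgeR step was tested on simulated data.

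Named genes were the 10 members, up to 4 called genes per list with the largest fold (otherwise the list's 2 genes of highest level), and 5 genes per leading member by r, on log levels with 0.1 added. The members and lists were chosen with earlier results of these data known. Alternatives were scaling, filter, test, cell limits, resolution, joint clustering, members kept among variable genes, left-out libraries and other thinning depths. Of the interstitial-like comparison, 3 alternatives on single or additional clusters were chosen after seeing the data. No sample was left out.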

Additional observations from a re-analysis of the deposited data

Results flagged for a closer look

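A difference in the E16.5-P0 change of Dpt between interstitial-like and surface endothelial-like cells passed 1 test (edgeR's quasi-likelihood test of the interaction, log2 difference -5.82, SE 1.57, adjusted p = 0.031). The size rests on a prior count and is no bound, because surface endothelial-like cells had 6 Dpt UMIs at E16.5 and 0 in both P0 libraries. The share of those cells with Dpt at E16.5 overlapped the capillary-like share, and whether the UMIs are background was not tested. Dpt reached the count filter of this fit only through its interstitial-like sums. No change of Dpt in surface endothelial-like cells, and no difference between the classes, is read from so few UMIs. The sums in interstitial-like cells were 169, 110 and 104 UMIs. Under DESeq2 the adjusted p was 1, and without the low-count filter it was 0.094. The range over 5 alternatives was 0.002 to 1.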

How the results depend on the processing

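Between E16.5 and P0, 953 genes were called in interstitial-like cells. DESeq2 called 312 and no low-count filter left 392, while clustering the libraries together gave 1620 and adding every cluster with 10 or more raised interstitial markers, chosen after seeing the data, gave 1623. In surface endothelial-like cells the count was 983 and fell to 324 with DESeq2. Over all kept cells it was 2574, and 3986 with library totals, 854 with DESeq2 and 1623 with cells of at least 1000 genes. For the difference between the classes it was 42. DESeq2 called 0 there (32 at an unadjusted p under 0.05, against 399 in edgeR), no filter left 22 and resolution 0.6 left 19.

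Thinned to 1000 UMIs, the share of interstitial-like cells with Thbs1 was 34.0% at E16.5, 31.0% in P0 replicate 1 and 46.3% in replicate 2, and with Dpt 34.0% at E16.5 and 36.6% in P0 replicate 2. Thinned to 2500 UMIs, the Dpt share at E16.5 was 63.3% and the Mgp share in P0 replicate 1 was 81.2%. With the members kept among the variable genes, the Mgp share at E16.5 was 84.4%. Shares rise with depth by construction.

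Among the 10 members in the interstitial-like comparison, Mgp, Postn, Sparc and Cyr61 kept their direction in 14 of 14 alternatives. Thbs1 did so in 11, Thbs2 in 12, and Dpt and Ctgf in 13 each. The changes of sign were Thbs1 to -0.24, Thbs2 to -0.19 and Dpt to -0.081 with library totals, Thbs1 to -0.56 and Thbs2 to -0.62 with cells of at least 1000 genes, and Thbs1 to -0.049 with the Mrc2- and Mfap4-led cluster as the only E16.5 cells. Ctgf changed sign without P0 replicate 1. Over all kept cells, library totals turned Thbs2 (-0.12), Tnc (-0.29) and Ctgf (-0.28), and cells of at least 1000 genes turned Thbs2 (-0.28) and Tnc (-0.33). In the difference between classes, library totals turned Postn (0.063) and Mgp (0.027), no filter turned Postn (0.0026), members kept among the variable genes turned Thbs1 (-0.049), Mgp (0.024) and Ctgf (-0.85), and resolution 0.6 turned Mgp (0.055). None of these was called in either fit, and the cause was not tested. Leaving out a P0 library leaves no residual degrees of freedom, so those fits gave folds and no calls. The class comparisons could not be run for surface endothelial-like cells with the libraries clustered together, since that clustering named no such class in all mitral libraries. No paired analysis was possible because the labels number only the P0 libraries, and E16.5 is 1 library. Low counts limit Tnc (14, 8 and 4 UMIs), Spp1 (1, 0 and 0), Thbs2 (37, 29 and 22) and Ctgf (32, 74 and 19) in interstitial-like cells at E16.5 and in P0 replicates 1 and 2.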
